A study of Saccharomyces cerevisiae with 8 samples.

Results

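The large subunit of the yeast cytosolic ribosome was represented by 81 protein genes, which are all 81 large subunit genes of the RefSeq reference table. They were taken by standard gene name, as RPL genes with a number and an optional letter A or B and as the stalk genes RPP0 to RPP2, from 6336 yeast features on the array. The same name pattern met 82 features. The remaining one, RPP1, encodes a subunit of RNase P and RNase MRP and not of the ribosome, and it was kept apart. It had log2 ratios of −0.28, −0.03, 0.27 and −0.01 after 3.5, 7, 15 and 30 min and was not called. A further feature named RPP1A, whose ID carries the suffix -r of unstated meaning, was left out by the rule.

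Cells of mating type a (strain BY4741 of Saccharomyces cerevisiae) were grown in rich medium (YPD) and either received 10 µM Iztli peptide 1 (IP-1), a designed peptide that joins the alpha mating pheromone to an antimicrobial peptide, or received no peptide. Harvest followed after 3.5, 7, 15 or 30 min, with 1 treated and 1 untreated culture grown independently for each exposure. RNA of the treated culture, labelled with Cy5, and of its untreated partner, labelled with Cy3, shared 1 array of open reading frame probes, on which every gene had 2 spots. The spots were averaged, so each gene has 4 independent log2 ratios of IP-1 over untreated, 1 per exposure. The dyes were never swapped, so any constant difference between the dyes at a probe is part of every mean. Exposures follow the sample labels, although the column headers number the arrays in the order 2, 3, 4, 1 from the shortest exposure to the longest. By the headers the array labelled 30 min would come first, and the slopes and every statement on the order of exposures rest on the labels. Both groups share the strain and the medium, and the sample titles name no other treatment. The growth protocol says that cells were treated with x to stop the reaction, without saying what x was.

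The proteins of the large subunit fold around its ribosomal RNA. They shape the peptidyl transferase centre, the exit tunnel of the growing chain and the stalk that recruits translation factors. Budding yeast carries most of these genes as paralogue pairs A and B, whose proteins are identical or nearly so. Transcription of ribosomal protein genes depends on Rap1, Fhl1, Ifh1 and Sfp1 and is known to be set together according to nutrients and stress. In these data 11 genes were single-copy and 70 formed 35 pairs.

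All 81 genes passed the filter on dim spots and were tested. The signal of the large subunit genes had a median of 20.9, 10.7, 41.2 and 5.42 times its local background in the IP-1 channel and of 28.7, 6.15, 23.1 and 8.49 times in the untreated channel at 3.5, 7, 15 and 30 min. No spot was saturated (0 spots). In both channels of every array, 79 of the 81 features were brighter than the upper limit set by empty spots; RPL6B and RPL9A were not, and they are named for that after their signals were seen. Across the 81 genes, log2 ratios of spot 1 and spot 2 correlated at 0.947, 0.864, 0.962 and 0.880. The labelled mating type could not be checked from its markers, since 7 of 7 a-specific and 3 of 4 alpha-specific genes exceeded the empty spots in the untreated channel. AGA1, a mating gene, stood at 2.68, 1.65, 1.97 and 1.51 in IP-1 relative to untreated cells.

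As a group the large subunit genes lay above the array's average at 3.5 and 15 min, near it at 7 min and slightly below it at 30 min. The sizes depend on the scaling: with median centring in place of loess the group stood 0.18 above all features at 7 min and 0.66 above at 15 min. Their median log2 ratio was 0.26 at 3.5 min, 0.05 at 7 min, 0.33 at 15 min and −0.08 at 30 min, while the median of all 6152 tested features was 0.00, 0.01, 0.01 and 0.00. The medians of the 2 spot sets differed little, with an SD of 0.0033, 0.011, 0.0020 and 0.0049. Ratios lay above 0 in 72, 54, 69 and 21 of the 81 genes. Both spots were above 0 in 69 genes at 3.5 min, where 38.2% of all tested features were so placed, and in 43 at 7 min (all features 41.7%). At 15 min this held for 64 genes (all features 43.0%) and at 30 min for 16 (all features 34.8%). The small subunit genes had the same order of medians, 0.22, 0.06, 0.40 and −0.12 in 55 tested genes. With 1 array per exposure these levels carry no test, and the difference between exposures cannot be told apart from that between arrays and cultures.

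**Figure D1:**
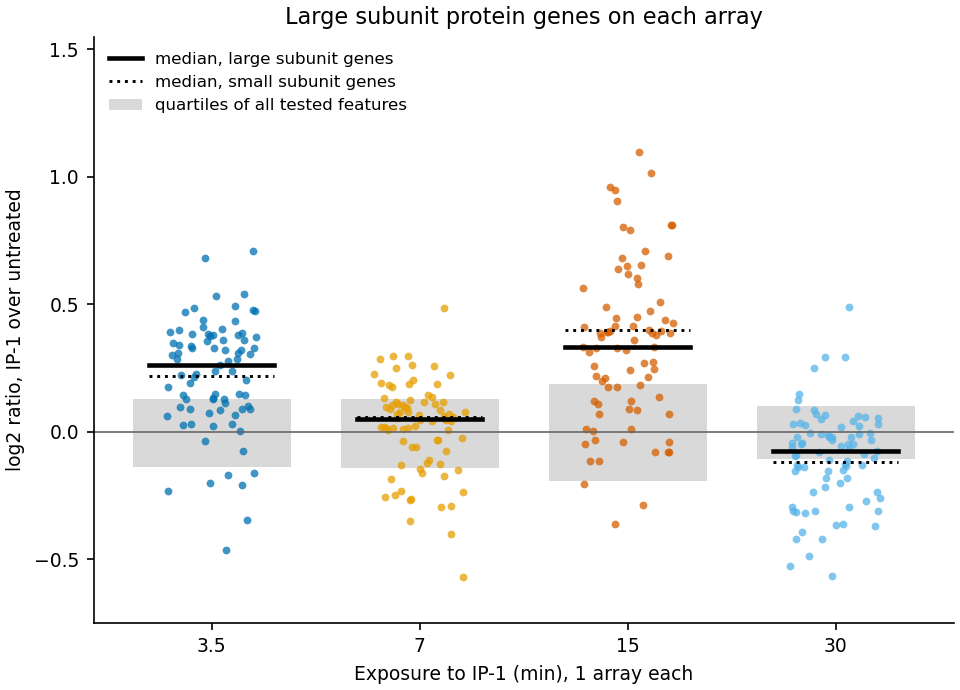
Log2 ratio of IP-1 over untreated (vertical axis) for the 81 large subunit protein genes (points, spread sideways for legibility) on the array of each exposure in minutes. Solid bars are the medians of the large subunit genes (0.26, 0.05, 0.33 and −0.08), dotted bars those of the small subunit genes, and grey boxes run between the quartiles of all tested features.

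Most members had their highest ratio on the same array and their lowest on the same array. The group's medians ranked as its signal over background in the IP-1 channel, at 41.2, 20.9, 10.7 and 5.42 for 15, 3.5, 7 and 30 min. The untreated channel had another order, at 23.1, 28.7, 6.15 and 8.49. The part of the signal level in the ratios was not tested. The 15 min ratio was the highest of the 4 in 54 of the 81 genes, against 31.6% of all tested features. The 30 min ratio was the lowest in 60 genes, against 24.5% of all features. The ratio was above 0 on all 4 arrays in 16 genes, close to the 17.5% of all features, and below 0 on all 4 in RPL11B, RPL16A, RPL37A and RPP2A (all features 19.4%). Slopes on the log2 of minutes were below 0 in 68 genes and above 0 in 13, while over all features 3041 were below 0 and 3111 above. None of the 81 genes was called for its slope (0 by limma after Benjamini-Hochberg adjustment, all features 0.00%), and 2 had an unadjusted p under 0.05, as did 61 of all features. Without the 15 min array 24 members had an unadjusted slope p under 0.05 and without the 30 min array 6 did, with 0 members called in either fit. Those 2 fits called 15 and 30 of all features. Their unadjusted count over all features was not taken, so 24 and 6 have no share beside them. Across the 81 genes, ratios on any pair of arrays correlated at 0.32 to 0.68 (Pearson), and over all tested features at 0.31 to 0.60. These correlations are descriptions, because ratios of a probe share its dye effect on every array.

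The call rate of the large subunit genes was that of the array as a whole. Over the 4 exposures, limma's test of the mean with Benjamini-Hochberg adjustment over all features called 7 of 81 genes, or 8.64%, against 8.91% of all features. Called higher in IP-1 were 5 genes (all features 2.08%) and called lower were 2 (all features 6.83%). The genes that rose were RPL29, RPP2B, RPL15B, RPP0 and RPL1B, and those that fell were RPL16A and RPL37A. Means lay above 0 in 63 genes and below 0 in 18, with a median of 0.14, while the median mean of all features was 0.01. An unadjusted p under 0.05 was reached by 31 of the 81 genes, beside 1732 of the 6152 tested features. That count of members was 12, 20, 16 and 43 without the 3.5, 7, 15 and 30 min array. The matching count over all features was not taken, so these 4 numbers have no share beside them. Each of the 7 calls ended when the 3.5 min array or the 7 min array was left out, at adjusted p of 0.085 to 0.15; those fits called only 12 and 10 features in all. RPL15B and RPL1B were also lost without the 15 min array, and RPP0, RPL1B and RPL37A without the 30 min array. Without background correction RPL29, RPP2B, RPL15B and RPL1B missed the threshold, at limma adjusted p of 0.053 to 0.090. None was called with a trended, robust prior (limma's eBayes, 0 of the 81 genes and 0 of all features), at adjusted p of 0.075 to 0.11. With that prior 27 members kept an unadjusted p under 0.05, and the count over all features was not taken.

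**Figure D2:**
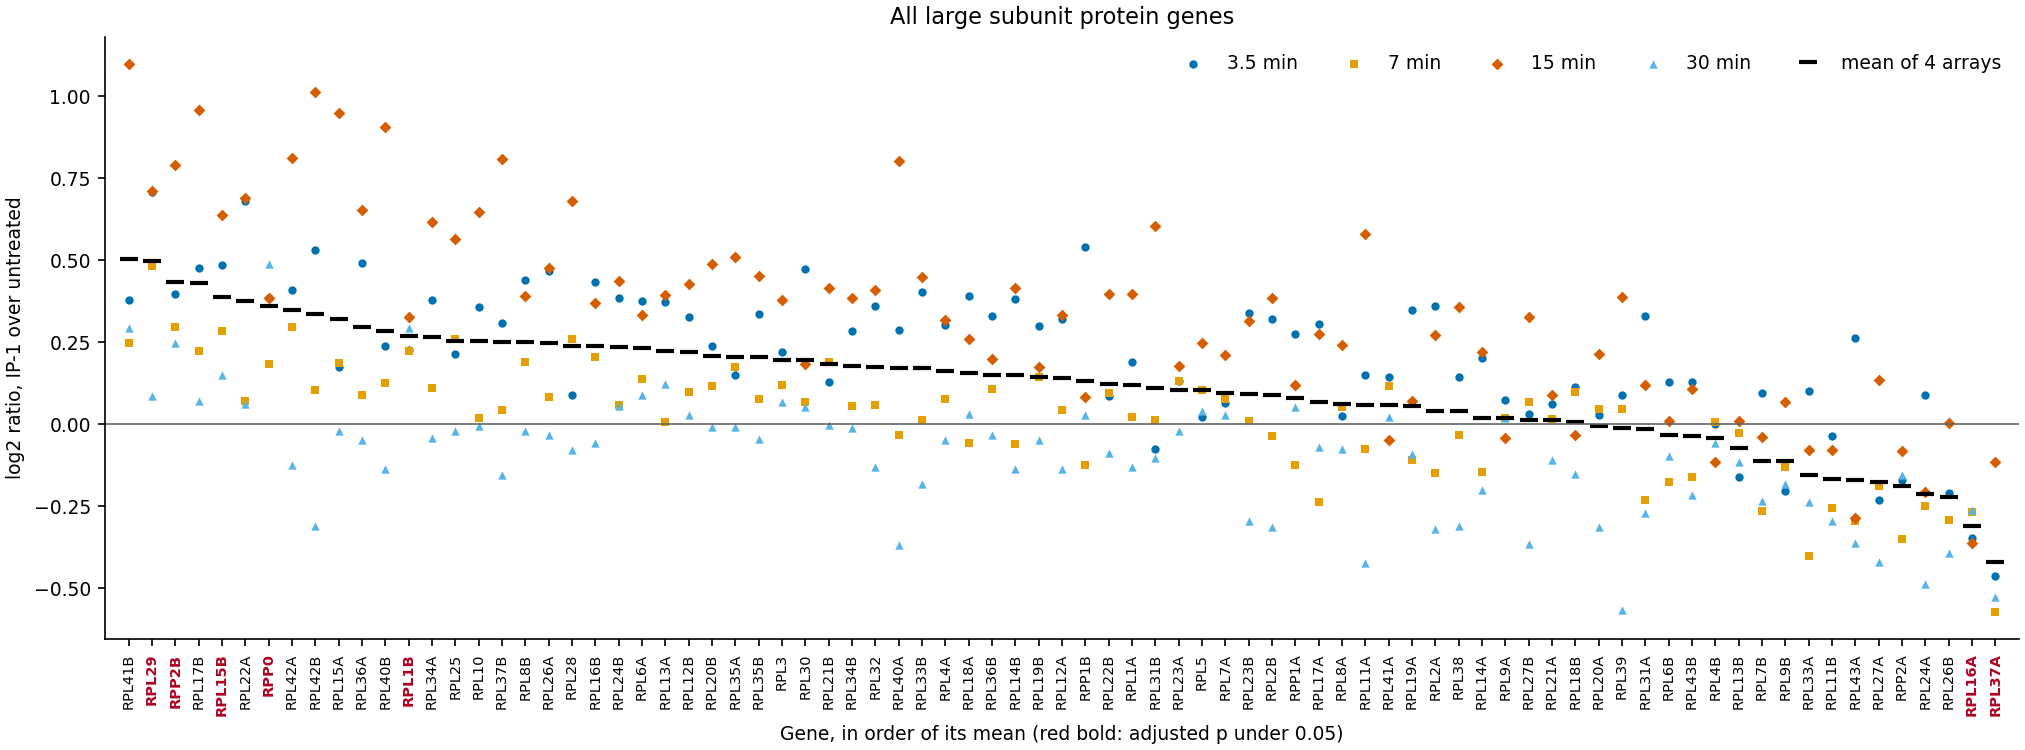
Log2 ratios of IP-1 over untreated for all 81 large subunit protein genes (horizontal axis, in order of the mean), with 1 point per exposure and a bar at the mean of the 4 arrays. Names in red bold are the 7 genes with an adjusted p under 0.05; most of the highest points belong to 15 min and most of the lowest to 30 min.

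The stalk and its base comprised 7 genes, of which 2 were called, both higher; of all features 2.08% were called higher. RPP0, the scaffold on which the acidic stalk proteins assemble, had log2 ratios of 0.39, 0.18, 0.39 and 0.49 at 3.5, 7, 15 and 30 min. All 4 arrays were above 0, and it is the member with the highest ratio of the 81 at 30 min. Its log2 intensity was 9.11, 10.15, 11.41 and 8.21 in IP-1, against 8.72, 9.96, 11.02 and 7.72 in untreated cells. The mean of 0.36 ± 0.13 (SD, n = 4 arrays; 1.28-fold) had a limma adjusted p of 0.023.

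RPP2B, one of the acidic P2 proteins, stood at 0.40, 0.30, 0.79 and 0.25, above 0 on every array and highest at 15 min. Its mean was 0.43 ± 0.25 (SD, n = 4 arrays; 1.35-fold; limma adjusted p = 0.030). Its paralogue RPP2A was below 0 on all 4 arrays, at −0.17, −0.35, −0.08 and −0.15, with a mean of −0.19 ± 0.11 (SD), and was not called (limma adjusted p = 0.12). The P1 genes differed at 3.5 min and lay close together on the later arrays: RPP1A was at 0.28, −0.12, 0.12 and 0.05 and RPP1B at 0.54, −0.13, 0.08 and 0.03. The second RPP1A feature, left out for its suffix, was at 0.35, 0.35, 0.31 and 0.05. RPL12A and RPL12B encode the protein at the foot of the stalk and stood at 0.32, 0.04, 0.33 and −0.14 and at 0.33, 0.10, 0.43 and 0.03, neither called.

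Among the 7 genes for bridges between the subunits and for proteins added late in assembly, RPL29 was called higher and none lower. Of all features 2.08% were called higher and 6.83% lower. RPL29, a small protein of the subunit interface encoded by 1 gene, had ratios of 0.71, 0.48, 0.71 and 0.09. The first 3 exposures lay far above the 30 min array. Its log2 intensity was 11.91, 8.86, 11.43 and 9.59 in IP-1, against 11.20, 8.38, 10.72 and 9.50 in untreated cells. The mean of 0.50 ± 0.29 (SD, n = 4 arrays; 1.41-fold) had a limma adjusted p of 0.028. The group's medians were 0.38, 0.12, 0.71 and 0.02 at the 4 exposures.

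RPL41B, whose product is a very short peptide at the subunit interface, had the highest mean of all 81 genes and missed the threshold. It stood at 0.38, 0.25, 1.10 and 0.29, with a mean of 0.50 ± 0.40 (SD, n = 4 arrays; limma adjusted p = 0.054). RPL42A (0.41, 0.30, 0.81 and −0.12) and RPL42B (0.53, 0.11, 1.01 and −0.31) were likewise highest at 15 min and below 0 at 30 min. RPL24A, which encodes a bridge protein, was at 0.09, −0.25, −0.21 and −0.49, while RPL24B was at 0.38, 0.06, 0.44 and 0.06. Neither gene of either pair was called. RPL24A was a dim feature, at brightness percentile 35.9 of the tested features.

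None of the 15 genes of the exit tunnel and its rim was called (0 by limma, 5 at an unadjusted p under 0.05, beside 1732 of all 6152 features). RPL17B, for a protein that lines the tunnel, came closest at 0.48, 0.22, 0.96 and 0.07, with a mean of 0.43 ± 0.39 (SD, n = 4 arrays; limma adjusted p = 0.077). RPL25, which binds the signal recognition particle at the exit, was at 0.22, 0.26, 0.56 and −0.02. RPL39, a tunnel protein, had the lowest 30 min ratio of the 81 genes, at −0.57, after 0.09, 0.05 and 0.39. RPL38 stood at 0.14, −0.03, 0.36 and −0.31. All 4 were lowest at 30 min.

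The list for the peptidyl transferase centre and subunit joining held RPL2A, RPL2B, RPL3, RPL10, RPL8A and RPL8B. No role in either is claimed for RPL8A and RPL8B. Means were 0.04 to 0.25 in all 6 genes. None was called (0 by limma, 3 at an unadjusted p under 0.05, RPL8B among them, beside 1732 of all 6152 features). RPL10, the protein loaded last before the subunit is active, was at 0.36, 0.02, 0.65 and −0.01. RPL3, which reaches into the catalytic centre, was at 0.22, 0.12, 0.38 and 0.07. Of the 3 genes of the particle formed with the small 5S ribosomal RNA, RPL5 was at 0.02, 0.10, 0.25 and 0.04, RPL11A at 0.15, −0.08, 0.58 and −0.42, and RPL11B below 0 throughout at −0.03, −0.25, −0.08 and −0.29. None of these 3 was called (0 by limma, 1 at an unadjusted p under 0.05). The 2 genes whose proteins are made as ubiquitin fusions had 15 min ratios of 0.80 and 0.91 and 30 min ratios of −0.37 and −0.14, with no call (0 by limma and 0 at an unadjusted p under 0.05).

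The other 41 genes contributed 2 calls in each direction (all features 2.08% higher and 6.83% lower). RPL1B, for the protein of the mobile L1 stalk at the tRNA exit, stood at 0.23, 0.22, 0.33 and 0.30. Its mean was 0.27 ± 0.05 (SD, n = 4 arrays, 1.20-fold, limma adjusted p = 0.035). The SD was the smallest of the 5 genes that rose, but RPL1B was also the dimmest of them, at brightness percentile 51.3. Its lowest signal was 1.95 times local background in IP-1 and 2.22 times in untreated cells. RPL15B was at 0.49, 0.28, 0.64 and 0.15, with a mean of 0.39 ± 0.22 (SD, n = 4 arrays; 1.31-fold; limma adjusted p = 0.033). Both features carry the names of both paralogues, so their ratios may hold signal of RPL1A and RPL15A too. Both calls ended with median centring in place of loess (adjusted p = 0.077 and 0.18 for RPL15B and RPL1B by limma), and RPL1B had a mean of −0.08 in the deposited ratios, which are not centred. The features of RPL15A and RPL1A carry both names as well, so their ratios may likewise hold signal of the B genes. RPL15A was at 0.17, 0.19, 0.95 and −0.02. RPL1A was at 0.19, 0.02, 0.40 and −0.13, and neither was called.

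RPL37A and RPL16A were the only 2 members called lower. RPL37A, which encodes a zinc-binding protein, had ratios of −0.46, −0.57, −0.12 and −0.53, with the 15 min array nearest 0. Its log2 intensity was 11.60, 9.40, 12.46 and 10.42 in IP-1, against 12.07, 9.97, 12.57 and 10.95 in untreated cells. The mean of −0.42 ± 0.21 (SD, n = 4 arrays; 1.34-fold lower) had a limma adjusted p of 0.026.

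RPL16A encodes a protein that binds early in subunit assembly. It stood at −0.35, −0.27, −0.36 and −0.26, nearly level over the exposures. The log2 intensity was 10.05, 8.72, 11.04 and 7.99 in IP-1, against 10.40, 8.99, 11.40 and 8.25 in untreated cells. Its mean was −0.31 ± 0.05 (SD, n = 4 arrays; 1.24-fold lower; limma adjusted p = 0.024). With median centring the means were −0.25 for RPL16A and −0.32 for RPL37A, and neither was called (limma adjusted p = 0.18 and 0.14).

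Among the genes with the 8 lowest means that were not called, RPL27A was at −0.23, −0.19, 0.14 and −0.42, and RPL43A at 0.26, −0.30, −0.29 and −0.36. Each was thus above 0 on 1 array, at 15 min for RPL27A and at 3.5 min for RPL43A.

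**Figure D3:**
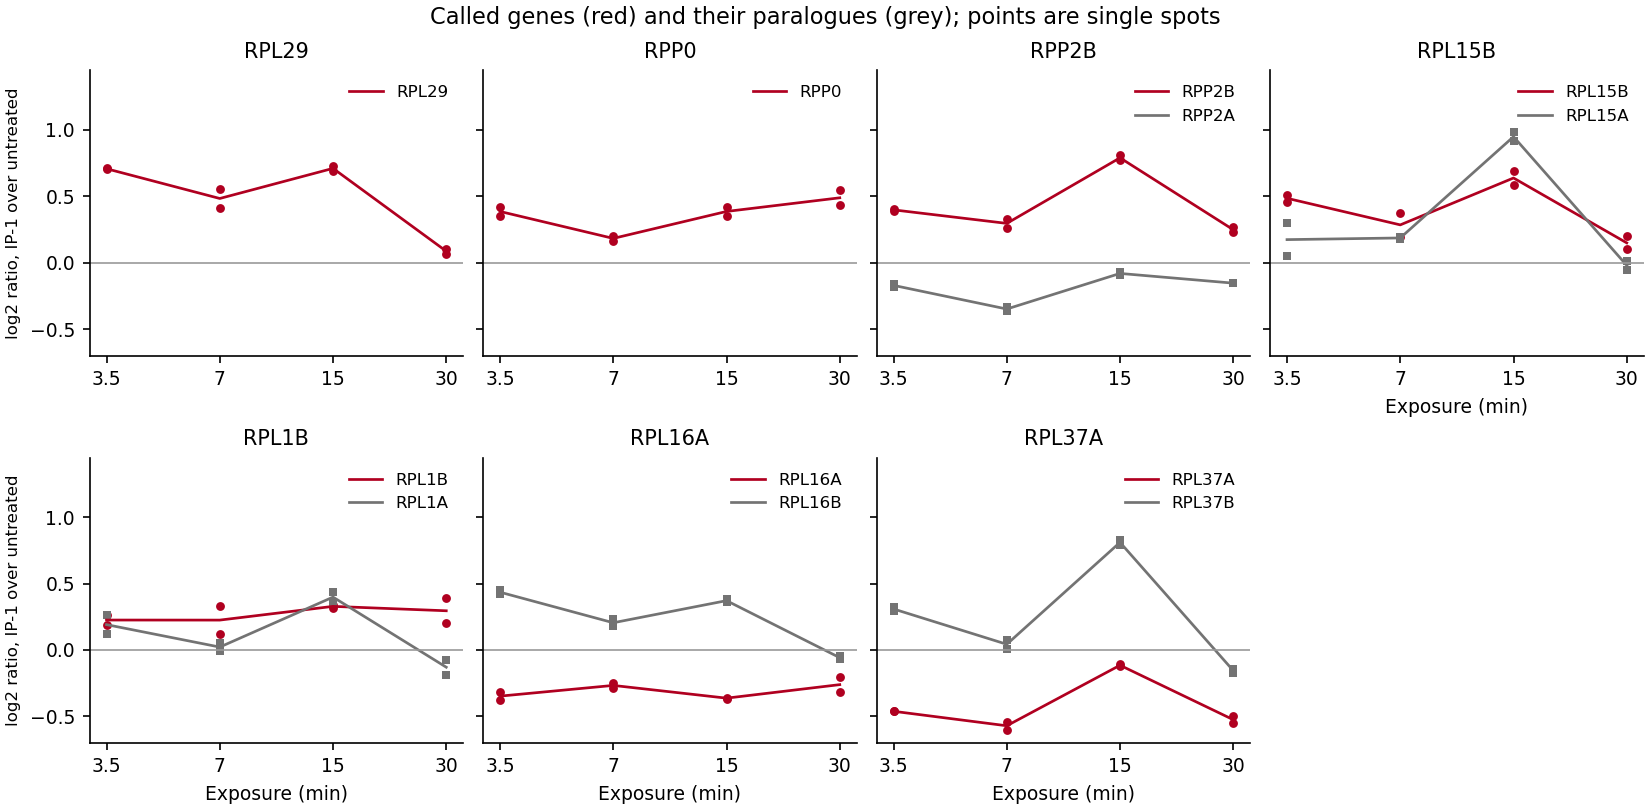
Log2 ratio of IP-1 over untreated at each exposure in minutes for the 7 called genes (red) and the paralogue of each where it has one (grey); points are the 2 spots of a gene and lines join their means. RPP2B lies above RPP2A, and RPL16A and RPL37A lie below RPL16B and RPL37B, on all 4 arrays.

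Genes present once in the genome were above 0 on most arrays. Of the 11, RPL29 and RPP0 were called higher, or 18.2% (all features 2.08%), and none lower (all features 6.83%). All 11 ratios were above 0 at 3.5 min and at 15 min, 10 were above 0 at 7 min and 5 at 30 min. Of all 81 members 72, 54, 69 and 21 were above 0 at 3.5, 7, 15 and 30 min. Of the 6152 tested features 3093, 3239, 3165 and 3125 were. RPL28 was at 0.09, 0.26, 0.68 and −0.08, RPL30 at 0.47, 0.07, 0.18 and 0.05, and RPL32 at 0.36, 0.06, 0.41 and −0.13. RPL30, whose product represses splicing of its own transcript, was thus highest at 3.5 min rather than at 15 min. Among the 70 duplicated genes, 3 were called higher and 2 lower. The difference between single and duplicated genes was not tested.

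Single arrays held few large changes outside 15 min. Both spots were at least 1.5-fold higher at 15 min in 16 of the 81 genes, or 19.8%, against 2.37% of all tested features. That count was 45 with median centring and 42 with the deposited ratios, so it depends on the scaling. The highest of these were RPL41B (1.10), RPL42B (1.01), RPL17B (0.96) and RPL15A (0.95). At 3.5 min this fold was passed by RPL22A and RPL29 (all features 1.17%), at 7 min by 0 genes (all features 0.211%) and at 30 min by 0 genes (all features 0.341%). Not one gene was 1.5-fold lower in both spots, a count of 0 of 81 at each exposure, where all features gave 1.02%, 0.813%, 5.10% and 0.260%. At 15 min the ratio moved with brightness across the 81 genes (Pearson's r = 0.43; −0.06, 0.00 and −0.03 at the other exposures), and its part in the 15 min values was not tested. Over all features that correlation was −0.04 at 15 min. RPL22A, for a protein not needed for growth, was at 0.68, 0.07, 0.69 and 0.06 and was not called (limma adjusted p = 0.093).

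The paralogues of a pair often parted. The log2 ratio of A minus that of B kept 1 sign on all 4 arrays in 17 of 35 pairs, or 48.6%, and on all 8 spots in 11. B was above A in 13 of the 17 and A above B in 4. The mean ratios of A and B had opposite signs in 15 pairs. The size of the mean difference had a median of 0.17 and ran up to 0.67. On single arrays the median size of the difference was 0.24, 0.16, 0.29 and 0.17, against 0.040, 0.050, 0.057 and 0.056 between the 2 spots of 1 gene. Those 2 spots share a probe, so their difference leaves out any dye difference between the probes of A and B. A constant dye difference of that kind would be part of the sign on all 4 arrays, and its part was not tested. No share of 1 sign was computed for other pairs of features. No p is given for a pair, since an exact two-sided sign-flip permutation test on 4 arrays cannot pass the threshold of 0.05.

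Of 5 pairs with a called gene, none had both called (0 pairs). Only 8.64% of the 81 genes and 8.91% of all features were called. A pair with both called would thus be rare, and the 0 is not read as a difference between paralogues. The RPL37 pair differed most, with A minus B at −0.77, −0.61, −0.93 and −0.37 and a mean of −0.67 ± 0.24 (SD, n = 4 arrays). RPL37B stood at 0.31, 0.04, 0.81 and −0.16 and was not called. The RPP2 pair followed at −0.57, −0.65, −0.87 and −0.40. RPL16 came next, at −0.78, −0.47, −0.73 and −0.20, with RPL16B at 0.44, 0.20, 0.37 and −0.06. In all 3 pairs the A gene was the lower one on every spot.

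The opposite order was found for RPL26, whose protein sits at the tunnel exit. RPL26A was at 0.47, 0.08, 0.48 and −0.03 and RPL26B at −0.21, −0.29, 0.00 and −0.39, so A minus B was 0.68, 0.38, 0.47 and 0.36. RPL24, RPL41, RPL17 and RPL33 completed the 8 pairs with a mean difference over 0.3, at −0.45, −0.45, −0.36 and −0.33, each with B above A on all 4 arrays. The 15 min array gave the widest gap in each of these 4 pairs, at −0.65, −1.15, −0.69 and −0.53. RPL24A was dim, at brightness percentile 35.9 of the tested features against 87.9 for RPL24B. Its lowest signal was 1.38 times local background in IP-1 and 1.91 times in untreated cells, so the RPL24 difference is less certain. RPL33A was at 0.10, −0.40, −0.08 and −0.24, and RPL33B at 0.40, 0.01, 0.45 and −0.18. RPL17A was at 0.31, −0.24, 0.27 and −0.07.

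The mean difference was smallest for RPL35, RPL23, RPL42 and RPL2, at 0.00089, 0.013, 0.013 and −0.049. Differences of opposite sign cancel in such a mean, so it does not show that A and B matched on each array. A minus B was −0.21, 0.12, −0.14 and 0.27 for RPL23, and −0.12, 0.19, −0.20 and 0.19 for RPL42. The deposited descriptions call the proteins identical in each of these pairs. Both RPL35 features and 1 RPL23 feature carry both gene names, so their spots may read the same transcripts, which was not tested. RPL2A, for a protein of subunit joining, was at 0.36, −0.15, 0.27 and −0.32, and RPL2B at 0.32, −0.03, 0.39 and −0.31. RPL35A was at 0.15, 0.17, 0.51 and −0.01 and RPL35B at 0.34, 0.08, 0.45 and −0.04. RPL23B, for a protein of the subunit interface, was at 0.34, 0.01, 0.31 and −0.30. These pairs crossed 0 from array to array and had no lasting order.

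**Figure D4:**
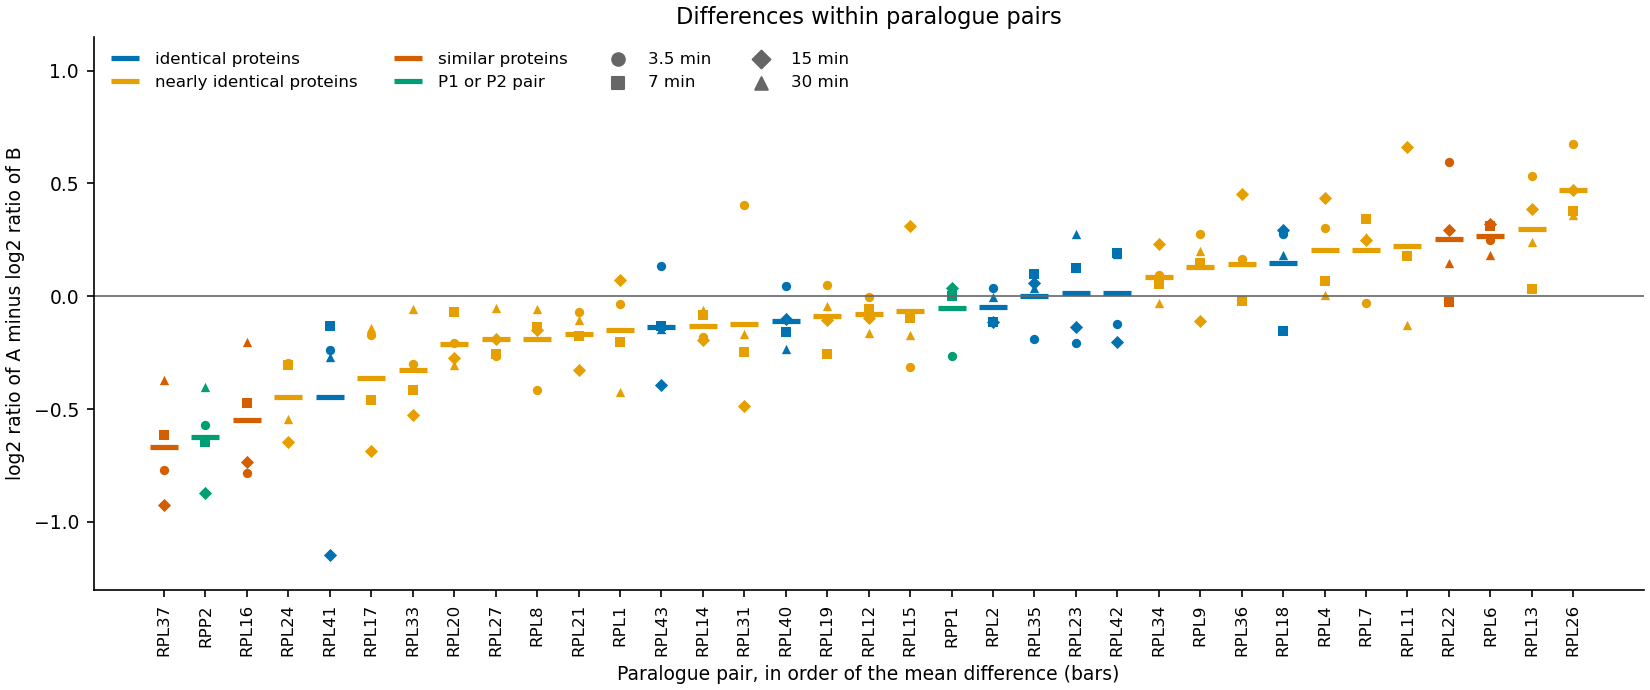
Difference of log2 ratios, A minus B, for the 35 paralogue pairs (horizontal axis, in order of the mean, drawn as a bar), with 1 point per exposure. Colours give how the deposited gene descriptions compare the 2 proteins; 13 pairs lie below 0 on all 4 arrays and 4 above 0.

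Probes of a pair can bind both transcripts, which the deposited names and descriptions record in part. The descriptions call the proteins identical in 8 pairs, nearly identical in 21 and similar in 4, and the P1 and P2 genes form the remaining 2. The order of A and B was kept on all 4 arrays in 1 of the 8 identical pairs, in 12 of the 21 nearly identical pairs and in 3 of the 4 similar pairs, and the median size of the mean difference was 0.080, 0.19 and 0.41. RPL6 is 1 of those 3 similar pairs, and since RPL6B was not above the empty spots its order and size are not a measured difference. RPL9, a nearly identical pair with RPL9A at that limit, kept no order. Both features carry both gene names in 8 pairs, 1 feature does in 4 pairs, and 23 pairs have separate names. The order was kept in 3 of the 8, in 1 of the 4 and in 13 of the 23. Across the 35 pairs, the ratio of A correlated with that of B at −0.19, −0.02, 0.05 and 0.22 at the 4 exposures, a description over pairs that share each array. Protein and probe sequences were not used here, so the binding of a probe to the other transcript was not tested.

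RPL41 is the exception among the identical pairs, and both of its features bear both names. RPL41A was at 0.14, 0.12, −0.05 and 0.02, and RPL41B at 0.38, 0.25, 1.10 and 0.29. Their spots did not overlap on any array. Of the other pairs whose features both bear both names, RPL4A (0.30, 0.08, 0.32 and −0.05) lay above RPL4B (0.00, 0.01, −0.12 and −0.06) with the spots averaged. At 30 min that difference was only 0.007, and its spots differed in sign (−0.097 and 0.11). RPL14B (0.38, −0.06, 0.42 and −0.14) lay above RPL14A (0.20, −0.15, 0.22 and −0.20) on every array. RPL7A was at 0.07, 0.08, 0.21 and 0.03 and RPL7B at 0.10, −0.27, −0.04 and −0.24, an order that turned at 3.5 min. RPL8A, RPL9A, RPL19A and RPL23A are the 4 features that bear both names while their partners bear 1, and none was called. They stood at 0.02, 0.05, 0.24 and −0.08 (RPL8A), at 0.08, 0.02, −0.04 and 0.02 (RPL9A), at 0.35, −0.11, 0.07 and −0.09 (RPL19A) and at 0.13, 0.13, 0.18 and −0.02 (RPL23A).

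Genes around the large subunit were counted in the same way. Of the 55 small subunit genes tested, RPS12 (mean 0.43), RPS25B (0.42), RPS11B (0.38) and RPS19A (0.35) rose and RPS22A (−0.38) fell, a share of 9.09% called, against 8.91% of all features. None of the 13 regulators of ribosomal protein transcription was called (0 by limma, 3 at an unadjusted p under 0.05, beside 1732 of all 6152 features). Among 24 dedicated chaperones and late assembly factors of the large subunit, 1 fell (all features 6.83%) and 0 rose (all features 2.08%). That gene was ARX1, an export factor that sits at the tunnel exit of the immature subunit, at −0.56, −0.46, −0.61 and −0.32. Its mean was −0.49 ± 0.13 (SD, n = 4 arrays; limma adjusted p = 0.011).

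The way the arrays were normalised set the size of the group's shift. Loess compares genes of equal brightness, and the large subunit genes are bright, with a median at percentile 81.8 of all features. With median centring in its place, the group's median was 0.19, 0.18, 0.66 and −0.07, and 45 genes passed the 1.5-fold limit at 15 min. In the ratios as deposited, without centring, the medians of all tested features were −0.15, −0.72, −0.04 and −0.10. The large subunit median minus those was 0.11, 0.43, 0.67 and −0.20. Relative to all features, the sign at each exposure was thus the same in all 3 versions. Ratios are relative to the other genes of the array, so a change of total messenger RNA per cell cannot be told apart from a change of these genes.

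**Figure D5:**
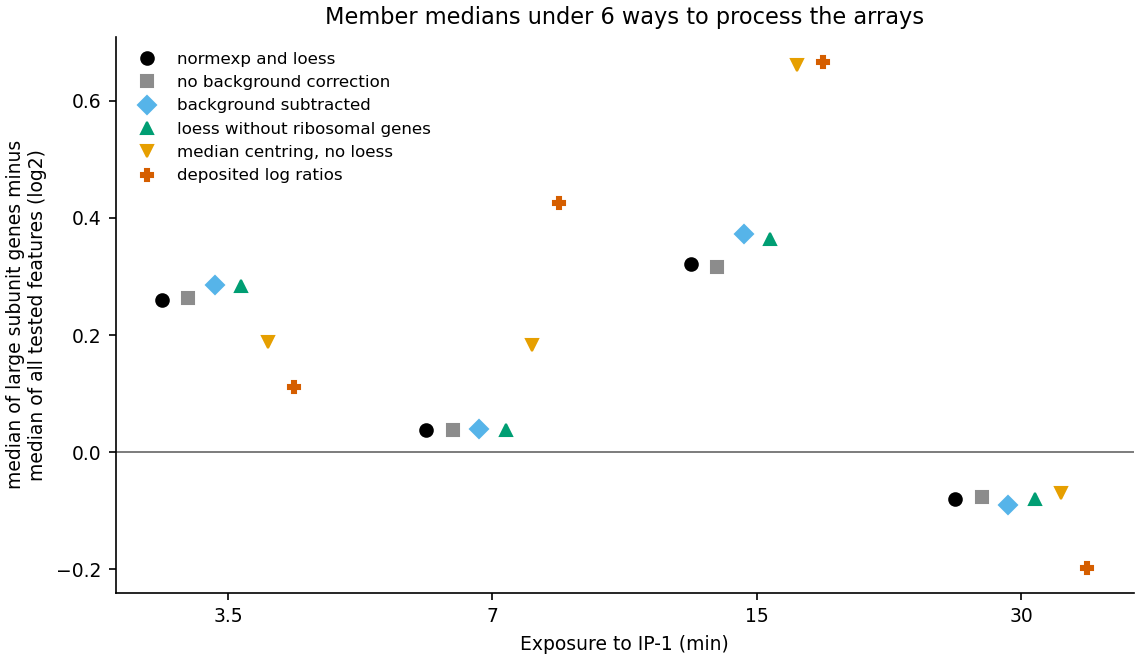
Median log2 ratio of the 81 large subunit protein genes minus the median of all tested features (vertical axis) at each exposure in minutes, under 6 ways to process the arrays. The 15 min value is 0.32 with loess and 0.66 with median centring, and the 30 min value is below 0 in all 6.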

How the data were processed

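The authors deposited scanner tables of 4 arrays, which list the raw and the background intensity of each spot in both channels, per the file headers. Values of the deposited series matrix equal the log10 ratio of the raw intensities, Cy5 over Cy3 (largest difference 4.98e-07). Neither labels nor headers name the scanner software. The deposited description text (other, no number) gave the wording on paralogue identity. Background was corrected with normexp (offset 50) and each array with global loess (span 0.3, 4 iterations, empty and Arabidopsis spots at weight 0). Spots were averaged. Tested features (6152 of 6336) had, on each of the 4 arrays, both spots over 2 background SDs above local background in 1 channel or both. limma 3.58.1 (R 4.3.3) tested the mean against 0 and the slope on log2 of minutes, two-sided, with Benjamini-Hochberg adjustment over all tested features and a threshold of 0.05. The p-values rest on 4 arrays of different exposures. Figures were drawn with Python 3.11.15 and matplotlib 3.10.9. The test of the mean was tested on simulated data.

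The members and lists were chosen with earlier results of these data known. Values on each array are given for called genes, the 8 highest and 8 lowest means, the stalk genes, single-copy genes and features of several names. They are also given for the 8 pairs with the largest and the 4 with the smallest mean difference. Alternatives were the background correction, normalisation, the deposited ratios, filters on dim or several-name features, the prior, spots kept apart and leaving out each array. No coordinates or sequences are given, since the probes' sequences were not used here. The replicate numbers in the labels are the 2 spots of 1 array and did not enter as replicates.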

Additional observations from a re-analysis of the deposited data

Results flagged for a closer look

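Of the 81 genes, 3 had a value far from their other 3 arrays by Dixon's test at 95%, where chance flags about 1 in 20. RPL41B stood at 1.10 at 15 min, against 0.25 to 0.38 on its other arrays. RPL31B, named here only for this, stood at 0.60 at 15 min, while its other arrays were at −0.10 to 0.01. RPL43A stood at 0.26 at 3.5 min, with its other arrays at −0.36 to −0.29. Arrays of different exposures are not replicates of one condition, so a high value can belong to the exposure or to the array.

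The median of the large subunit genes was below 0 at 30 min and above 0 at each other exposure. It differed by −0.34 between 30 and 3.5 min, by −0.13 between 30 and 7 min and by −0.41 between 30 and 15 min. These differences were not tested, since each exposure had 1 array.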

How the results depend on the processing

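With 4 arrays, precision is limited by their number. Of the 81 genes, 5 were called higher and 2 lower in the main setting. The higher count became 1 without background correction and 3 without several-name features (61 genes). The lower count became 0 with median centring. Both counts were 0 with the deposited ratios (all features 0.96%) and with the trended, robust prior (all features 0). In either direction, 3.70% of members and 4.28% of all features were called without background correction. With median centring these shares were 6.17% and 4.94%. Leaving out each array gave 0 to 7 higher and 0 to 3 lower. Of all features 0.195%, 0.163%, 7.59% and 9.35% were called without the 3.5, 7, 15 and 30 min array. The spot numbers did not pair samples (correlations −0.05 to 0.03). Keeping spots apart with the array and a replicate block called 9 higher. In that fit 13.6% of members and 12.7% of all features were called in either direction. No slope of a member was called in any setting (over all features, leaving out 15 min gave 15 and leaving out 30 min gave 30). The pairs of 1 sign numbered 13 to 25. With 1 array left out the rule asks for fewer arrays, so those counts cannot fall below the 17 of the main setting. The pairs compared were 23 without several-name features and 33 for features above the empty spots. Medians were 0.324 at 15 min without background correction; 0.290, 0.396 and −0.0839 at 3.5, 15 and 30 min with plain subtraction; 0.187, 0.181 and 0.659 at 3.5, 7 and 15 min with median centring; 0.290 and 0.380 at 3.5 and 15 min with loess fitted without ribosomal genes; 0.276 and 0.358 at 3.5 and 15 min for features above the empty spots; 0.30, 0.371 and −0.0960 at 3.5, 15 and 30 min without several-name features; and −0.0392, −0.296, 0.623 and −0.296 with the deposited ratios, which are not centred. Genes past 1.5-fold in both spots were 1, 1 and 45 higher at 3.5, 7 and 15 min with median centring, and 0 and 42 higher at 3.5 and 15 min and 2, 11 and 3 lower at 3.5, 7 and 30 min with the deposited ratios. Signs of means turned with the deposited ratios in RPL11A (−0.0951), RPL14A (−0.0519), RPL17A (−0.0938), RPL19A (−0.192), RPL1A (−0.0176), RPL1B (−0.0808), RPL23B (−0.0417), RPL26A (−0.0312), RPL2A (−0.0641), RPL2B (−0.0503), RPL32 (−0.0571), RPL33B (−0.0415), RPL38 (−0.0401), RPL7A (−0.0675), RPL9A (−0.244), RPP1A (−0.0719) and RPP1B (−0.0748), with median centring in RPL39 (0.109), RPL43A (0.00919), RPL4B (0.108) and RPL9A (−0.0139), and with plain subtraction in RPL39 (0.00546). Over the arrays left out, means ran from −0.116 to 0.218 for RPL11A, −0.0476 to 0.0925 for RPL14A, −0.0110 to 0.171 for RPL17A, −0.0436 to 0.109 for RPL19A, −0.0656 to 0.161 for RPL2A, −0.00869 to 0.224 for RPL2B, −0.0655 to 0.157 for RPL38, −0.144 to 0.175 for RPL39, −2.35e-05 to 0.106 for RPL8A, −0.00148 to 0.0374 for RPL9A and −0.00417 to 0.218 for RPP1B. The cause was not tested.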
